A study of Mus musculus with 4 samples.

Results

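The 5 genes described here were present in stem cells of wild-type mice and nearly absent in those of NHD13 mice: Wfdc2, Cdcp1, Lrrn1, B3galt1 and Akr1c19. They were chosen from their own counts in these libraries, so their levels are given as a description, with no test of the difference between the groups. The tables held 24016 gene symbols, and each of the 5 genes had 1 transcript in them. RNA was sequenced from bone marrow cells of C57BL/6 mice, sorted at 4 months of age as lineage-negative, Sca-1+, c-Kit+, CD34-, Flt3- and CD150+, a gate for hematopoietic stem cells (HSCs). The NHD13 group (genotype NHD13+, NHD13+Tg in the design) had 2 libraries, and the wild-type (WT) group had 2. The NHD13 transgene encodes a NUP98-HOXD13 fusion protein, and mice that carry it are a model of myelodysplastic syndrome. The labels name no promoter for the transgene. They also do not say if different animals or pools gave the 2 libraries, so SDs and p-values reflect only how far these samples differ, which may be technical.

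The 5 genes belong to different protein families. Wfdc2 encodes HE4, a small secreted protein with a whey acidic protein (WAP) domain, a fold shared by several protease inhibitors, and is best known from epithelia. Cdcp1 encodes a transmembrane protein with CUB domains, known in humans as CD318. Proteases such as matriptase can cleave it, Src family kinases phosphorylate its cytoplasmic tail, and it has been described as a surface marker of human hematopoietic stem and progenitor cells. Lrrn1 encodes a transmembrane protein with leucine-rich repeats studied mainly in the nervous system. B3galt1 encodes a Golgi enzyme that adds galactose in beta-1,3 linkage to N-acetylglucosamine on glycans. Akr1c19 belongs to the aldo-keto reductases, NADPH- or NADH-dependent enzymes that reduce carbonyl groups of steroids and other substrates, and sits in a cluster of Akr1c genes.

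The libraries held 35025974 to 48423689 counts with 1 transcript per gene. Stem cell genes were present in all 4: the summed level of 14 stem cell identity genes was 2938 and 3182 CPM (counts scaled to a common library total) in NHD13 and 4880 and 5175 CPM in WT. Of these 14 genes 5 fell in NHD13 and none rose, by edgeR's quasi-likelihood test at an adjusted p of 0.05. Over all genes tested, 2.22% fell and 2.07% rose. Of 5 genes of the sort gate (Kit, Ly6a, Slamf1, Cd34 and Flt3) none was called by that test. DESeq2 called Cd34 and Ly6a lower (adjusted p 2.50e-05 and 0.000400) and not the rest. Cd34 was at 51.6 and 21.4 CPM in NHD13 and 120 and 138 CPM in WT. Ly6a was at 131 and 77.7 CPM in NHD13 and 273 and 200 CPM in WT. Flt3 was uneven in NHD13, at 59.0 and 4.33 CPM, and was at 10.4 and 15.4 CPM in WT. The progenitor gene Cd48 stood at 267 and 223 CPM in NHD13 and 4.83 and 5.06 CPM in WT. WT library 1 stood apart in epithelial and stromal genes, as given below.

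The 250 bases upstream of the start site are shown for the genes with the fewest counts in NHD13, Lrrn1 and Akr1c19, and for B3galt1, where the window at the start of the counted transcript held motifs. Sequences are from RefSeq on GRCm38.p6, 5′ to 3′ on the gene's strand. Capitals mark matches, on either strand, to GATAA (GATA factors), TGTGGT (RUNX factors), TGACAG (MEIS factors) and TAATTA (homeodomain factors).
Lrrn1, chr6:107529476-107529725, plus strand: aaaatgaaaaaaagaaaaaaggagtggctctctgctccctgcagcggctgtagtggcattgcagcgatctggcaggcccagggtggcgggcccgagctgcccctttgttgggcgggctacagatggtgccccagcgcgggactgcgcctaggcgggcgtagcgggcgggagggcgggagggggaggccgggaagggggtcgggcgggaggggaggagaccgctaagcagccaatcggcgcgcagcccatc
B3galt1, chr2:68104422-68104671, plus strand: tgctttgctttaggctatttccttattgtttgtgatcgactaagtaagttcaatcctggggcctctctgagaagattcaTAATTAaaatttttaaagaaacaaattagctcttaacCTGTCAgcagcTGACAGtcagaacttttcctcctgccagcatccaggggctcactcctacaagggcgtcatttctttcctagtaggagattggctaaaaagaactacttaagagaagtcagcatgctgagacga
Akr1c19, chr13:4233490-4233739, plus strand: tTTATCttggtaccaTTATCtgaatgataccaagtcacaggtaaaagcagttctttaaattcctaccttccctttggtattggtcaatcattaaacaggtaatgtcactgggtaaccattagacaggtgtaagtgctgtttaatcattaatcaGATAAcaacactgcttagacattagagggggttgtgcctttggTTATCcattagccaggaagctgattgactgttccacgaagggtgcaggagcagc

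The promoters of the 5 genes differed widely in base composition. The Lrrn1 window held 20 CpG and 68.0% G and C, with no match to any of the 4 motifs. The Akr1c19 window held 1 CpG and 40.8% G and C, with 4 matches to GATAA. The B3galt1 window at the counted start held 3 CpG and 41.2% G and C, with 2 matches to TGACAG and 1 to TAATTA, while the window of its other annotated start held 18 CpG and none of the motifs. The Wfdc2 window (chr2:164562465-164562714, plus strand) had 14 CpG and 64.8% G and C, and the Cdcp1 window (chr9:123216039-123216288, minus strand) had 9 CpG and 59.6%. Neither had a match. Over all 32851 promoter windows of the table the medians were 6 CpG and 52.4% G and C. GATAA or its reverse was present in 22.6% of those windows, with at least 4 matches in 0.119%, TGACAG in 15.9%, TGTGGT in 14.0% and TAATTA in 4.84%. No motif was common to the 5 genes.

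Wfdc2, the HE4 gene, had 15 and 18 counts in the NHD13 libraries and 1240 and 912 counts in the WT libraries. This was 0.437 and 0.367 CPM in NHD13 and 28.5 and 24.96 CPM in WT, so the groups were far apart and the libraries within each were close. The NHD13 level was 1.47% of the WT level, with a 95% exact binomial interval of 1.01 to 2.07%. Intervals here and below cover counting error only.

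Cdcp1, the CUB domain receptor gene, had 50 and 76 counts in NHD13 and 1403 and 1234 counts in WT. In CPM it was at 1.46 and 1.55 in NHD13 and at 32.3 and 33.8 in WT. It kept the largest remainder of the 5 genes, 4.59% of the WT level (3.81 to 5.49%).

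B3galt1, the galactosyltransferase gene, had 8 and 10 counts in NHD13 and 532 and 435 counts in WT. Its levels were 0.233 and 0.204 CPM in NHD13 and 12.2 and 11.9 CPM in WT. Both NHD13 libraries retained a few counts, 1.79% of the WT level (1.05 to 2.84%).

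Lrrn1, the leucine-rich repeat gene, had 0 and 0 counts in NHD13 and 209 and 180 counts in WT, which was 4.81 and 4.93 CPM in WT. With 3 counts over the NHD13 group as the limit that a count of 0 allows, and the WT level as measured, it was at least 135-fold lower in NHD13. Akr1c19, the aldo-keto reductase gene, had 0 and 1 counts in NHD13 and 286 and 265 counts in WT, the WT counts standing for 6.58 and 7.25 CPM. Its ratio of WT over NHD13 was 574 with a 95% exact binomial interval of 103 to 22709. These 2 genes were thus at or next to 0 in both NHD13 libraries, while the other 3 left a measurable remainder.

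**Figure D1:**
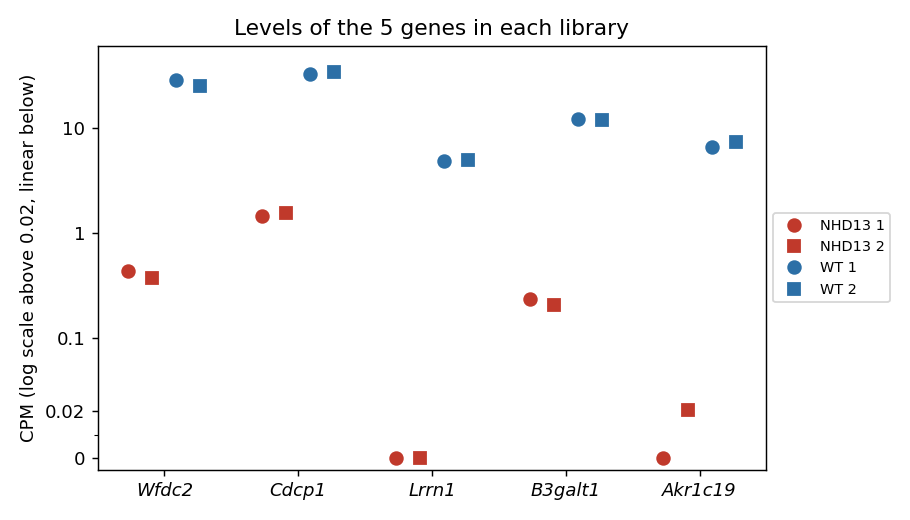
CPM of the 5 genes (y axis, logarithmic above 0.02 and linear below) in each of the 4 libraries, NHD13 in red and WT in blue, circles for library 1 and squares for library 2. Every WT value lies between 4.81 and 33.8 CPM and every NHD13 value between 0 and 1.55 CPM.

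Within each group the libraries were close. In WT, the ratio of library 1 to library 2 was 1.14 for Wfdc2 (95% exact binomial interval 1.05 to 1.25), and it was 0.955 for Cdcp1, 0.975 for Lrrn1, 1.03 for B3galt1 and 0.907 for Akr1c19, each with an interval that held 1. In NHD13, the remaining counts gave ratios of 1.19 (0.558 to 2.50) for Wfdc2, 0.938 (0.643 to 1.36) for Cdcp1 and 1.14 (0.391 to 3.21) for B3galt1. The remainders themselves differed between genes: the interval for Cdcp1 (3.81 to 5.49%) lay above those of Wfdc2 and B3galt1, which overlapped each other.

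Levels between genes were compared per kilobase of transcript, with lengths from the GENCODE M21 transcript paired with each RefSeq accession. In WT, Wfdc2 was highest at 31.5 ± 2.96 CPM per kb (SD, n = 2). Cdcp1 followed at 6.22 ± 0.202, Akr1c19 at 5.57 ± 0.386, B3galt1 at 4.23 ± 0.0808 and Lrrn1 at 1.32 ± 0.0232 CPM per kb. Neighbours in this order did not overlap between libraries, but Cdcp1 (6.07 and 6.36) and Akr1c19 (5.29 and 5.84 CPM per kb) lay close. In NHD13 the order of the genes with counts in both libraries was Wfdc2 (0.514 and 0.433), Cdcp1 (0.274 and 0.292) and B3galt1 (0.0816 and 0.0715 CPM per kb).

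Of 10598 tested genes at 4.81 CPM or more in both WT libraries, the lowest value of the 5 genes there, 23 were at or below 4.59% of the WT level in NHD13, counting the 5 genes themselves. None of the 5 transcripts shared an exact 75-base stretch, the read length, with a transcript of another gene in GENCODE M21, and none had the same counts as another symbol.

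For each gene, the 3 tested genes outside the 5 whose centred log2 CPM lay nearest over the 4 libraries were listed, leaving out predicted and clone-based names (Euclidean distance, prior count of 2). Of these genes B3galt1 lay nearest to Clec1a, a C-type lectin-like receptor gene (distance 0.24), followed by Akr1c14 (0.39) and the imprinted gene Ndn (0.46). Clec1a was at 3.52 and 3.47 CPM in NHD13 and 135 and 149.8 CPM in WT, and Ndn at 2.44 and 2.59 CPM in NHD13 and 86.2 and 87.3 CPM in WT. Wfdc2 had the same 3 nearest genes, with distances of 0.43 for Akr1c14, 0.63 for Clec1a and 0.85 for Ndn. Cdcp1 lay nearest to Fxyd1, of the family of sodium pump regulators (0.25), and Gkn3, a gastrokine gene (0.26). Lrrn1 and Akr1c19 lay nearest to Isl1, a LIM homeobox gene (0.73 and 0.68; 0 and 0.0408 CPM in NHD13 and 4.85 and 5.31 CPM in WT), and next to Akr1c14 (1.14 and 1.45), followed by Clec1a for Lrrn1 (1.32) and by the non-coding Snhg18 for Akr1c19 (1.52). Among the 5 genes themselves, Wfdc2 and B3galt1 (0.41) and Lrrn1 and Akr1c19 (0.44) were the closest pairs, Lrrn1 and Akr1c19 being closer to each other than either was to Isl1, and Cdcp1 and Akr1c19 (2.50) the farthest. Where counts are at or near 0 these distances depend on the prior count.

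**Figure D2:**
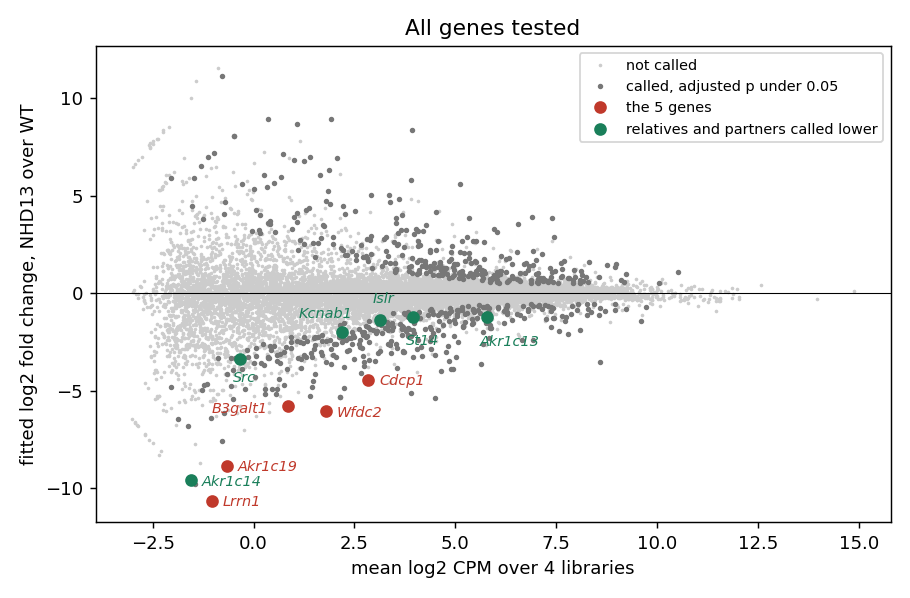
Fitted log2 fold change of NHD13 over WT (y axis) against mean log2 CPM over the 4 libraries (x axis) for all 14853 genes tested, called genes in dark grey, the 5 genes in red, and the 6 relatives or partners called lower in green. The 5 genes lie at the lower edge, at -4.45 for Cdcp1 and below -5 for the others; the fitted values of Lrrn1, Akr1c19 and Akr1c14 depend on the prior count.

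Relatives and partners of the 5 genes were taken from 5 lists and tested in the fit over all genes. The rule that chose the 5 genes did not use them. The lists were drawn up with earlier results of these data known, so their calls are not an independent test. In NHD13 the kinase gene Src was lower, as were the matriptase gene St14 and the Akr1c19 relatives Akr1c14 and Akr1c13. Across all 14853 genes tested, 4.28% were called at an adjusted p of 0.05 (2.22% lower and 2.07% higher). Of 113 listed relatives with a row in the data, 67 passed the filter on low counts, and 8 of these were called, 6 lower and 2 higher. Src and Akr1c14 passed that filter through the WT libraries alone, and 6 calls remain without them. The median log2 fold change was -0.09 over the 67 and 0.00132 over all genes. In this bulk RNA, fewer cells that express a gene and less RNA per cell cannot be told apart.

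The calls depended on the libraries included. The edgeR test called none of the 8 without WT library 1, WT library 2 or NHD13 library 1, where 15, 18 and 17 relatives had p under 0.05 before adjustment. On the 4 libraries 20 of the 67 had it. In those fits DESeq2 called 6, 7 and 11 relatives. Without NHD13 library 2 edgeR also called 8 relatives, but Src, St14, Fyn and Islr were not among them.

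Among the proteases and signalling partners of CDCP1, 2 of 13 tested members fell and 1 rose. Src, a kinase that phosphorylates CDCP1, was at 0.233 and 0.204 CPM in NHD13 and 2.35 and 2.22 CPM in WT. It fell by 3.37 ± 0.48 on the log2 scale (SE, edgeR adjusted p 0.0380), having passed the filter on low counts through WT alone. St14, which encodes matriptase, was at 9.46 and 11.1 CPM in NHD13 and 25.8 and 21.2 CPM in WT, a log2 fold change of -1.19 ± 0.18 (adjusted p 0.0435). Fyn, another kinase of the Src family, moved the other way, at 27.4 and 28.3 CPM in NHD13 and 14.4 and 12.6 CPM in WT (1.05 ± 0.15, adjusted p 0.0373).

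For these 3 genes the groups did not overlap. Cd6, which encodes a T cell surface receptor that binds CDCP1, was not called, with 0.378 and 28.7 CPM in NHD13 and 0.368 and 0 CPM in WT. The T cell marker Cd3e was likewise at 0.728 and 36.3 CPM in NHD13 and 0.713 and 0.493 CPM in WT. Cd3g (1.02 and 30.8 CPM) and Gzmb (0.873 and 30.3 CPM) were also uneven in NHD13. Cd3d was not, at 0.407 and 0.633 CPM in NHD13 and 0.736 and 0.520 CPM in WT. In NHD13 Cd8a had 0 and 5 counts, Ncr1 had 1 and 7, and Klrb1c was at 29.4 and 48.8 CPM. The 7 T and NK cell markers summed to 32.5 and 147 CPM in NHD13 and 41.9 and 46.7 CPM in WT. Their part in Cd6 was not tested. Further members named after their values were seen were not called either. Yes1, a further Src family gene, had -1.29 ± 0.52 (adjusted p 0.196) and Lyn had 0.33 ± 0.18 (adjusted p 0.292). Ptk2, the focal adhesion kinase gene, had -1.14 ± 0.29 (adjusted p 0.0929), and Prkcd, a protein kinase C gene, had 0.35 ± 0.16 (adjusted p 0.234). The median log2 fold change of the 13 was 0.02. St14 missed the edgeR threshold with scaling by library totals only and with transcripts summed per gene, and Src with the replicate numbers crossed as a block.

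In the aldo-keto reductase list, 3 of 12 tested members fell and 1 rose. Akr1c14, a hydroxysteroid dehydrogenase gene of the same cluster as Akr1c19, had 0 and 0 counts in NHD13 and 122 and 69 counts in WT. With 3 counts over the NHD13 group as the limit, it was at least 66.3-fold lower in NHD13 (edgeR adjusted p 0.0334). It passed the filter on low counts through WT alone. Akr1c13 was at 30.7 and 41.9 CPM in NHD13 and 83.1 and 86.3 CPM in WT, a log2 fold change of -1.22 ± 0.17 (adjusted p 0.0381).

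Both genes of the cluster were lower in both NHD13 libraries than in either WT library. Akr1c13 shared 17.3% of its 75-base stretches with Akr1c12, so reads may be split between them, and Akr1c12 itself was not called (-0.56 ± 0.35, adjusted p 0.364). The other called members encode beta subunits of voltage-gated potassium channels, which belong to the same superfamily. Kcnab1 fell by 1.99 ± 0.32 on the log2 scale (adjusted p 0.0461; missed by edgeR with scaling by library totals only) and Kcnab2 rose by 0.89 ± 0.11 (adjusted p 0.0321). The median of the 12 was -0.02. Among members not called, the aldehyde reductase gene Akr1a1 was at 363 and 379 CPM in NHD13 and 353 and 344 CPM in WT, and the aldose reductase gene Akr1b3 at 244 and 217 CPM in NHD13 and 185 and 204 CPM in WT.

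Among relatives of Lrrn1 with leucine-rich repeats, edgeR called 1 of 12 tested members lower and none higher. Over all genes tested, 2.22% were called lower. Islr, which encodes a protein with immunoglobulin and leucine-rich repeat domains, was at 5.56 and 5.29 CPM in NHD13 and 13.2 and 14.5 CPM in WT (log2 fold change -1.35 ± 0.20, adjusted p 0.0389). The closest relatives of Lrrn1 were not called: Lrrn4 was at 6.66 and 12.4 CPM in NHD13 and 12.9 and 12.9 CPM in WT, and Lrrn3 at 1.37 and 2.76 CPM in NHD13 and 2.02 and 2.11 CPM in WT. Lrrn2 had 4 counts in WT library 1 and 0 in the other 3 libraries. DESeq2 called 4 of the 12, against 17.5% of all tested genes. Besides Islr these were Flrt2 and Amigo2, both lower, and Lrrtm4, higher (adjusted p 0.0166), all named after their values were seen. Lrrtm4 had 20 and 49 counts in NHD13 and 1 and 0 counts in WT (edgeR adjusted p 0.0580). The median of the 12 was -0.55.

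Of 24 tested beta-1,3-glycosyltransferase genes none was called by edgeR over all genes on the 4 libraries. Before adjustment 5 had p under 0.05, which 26.8% of all tested genes had. DESeq2 called 1, against 17.5% of all tested genes, and limma-voom 0, against 4.17%. B3gnt5, which starts lacto-series glycolipid chains, was at 25.2 and 19.2 CPM in NHD13 and 43.8 and 38.5 CPM in WT (-0.89 ± 0.18, adjusted p 0.0654, or 0.00114 by DESeq2). B3gnt6, the core 3 synthase gene, had -2.34 ± 0.74 (adjusted p 0.133). Other B3galt genes that were tested were not called: B3galt2 had 1.34 ± 0.44 (adjusted p 0.141), B3galt4 0.71 ± 0.23 (adjusted p 0.143) and B3galt6 -0.15 ± 0.18 (adjusted p 0.641). B3galt5 did not pass the filter and was not tested, with 7 and 19 counts in NHD13 and 2 and 0 counts in WT. The median of the 24 was -0.09.

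Of 22 genes of the WAP domain list with a row in the data, 6 passed the filter, and none was called by edgeR. Before adjustment 2 had p under 0.05 and DESeq2 called 2, counts too small to set against those shares, and limma-voom called 0. Slpi, a secreted inhibitor of leukocyte proteases, was at 52.9 and 62.9 CPM in NHD13 and 35.4 and 22.9 CPM in WT (0.99 ± 0.24, adjusted p 0.0868). Wfikkn2, which encodes a protein that binds growth and differentiation factors, was at 0.640 and 0.592 CPM in NHD13 and 1.86 and 2.41 CPM in WT (-1.79 ± 0.44, adjusted p 0.0899). Wfdc17 and Wfdc21 were high in NHD13 library 1 alone, Wfdc17 at 45.7 CPM there and 2.27 CPM in the other, against 4.16 and 3.89 CPM in WT. The summed level of 10 granulocyte markers was likewise uneven in NHD13, at 3911 and 1224 CPM, and was 652 and 582 CPM in WT; its part in these values was not tested.

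**Figure D3:**
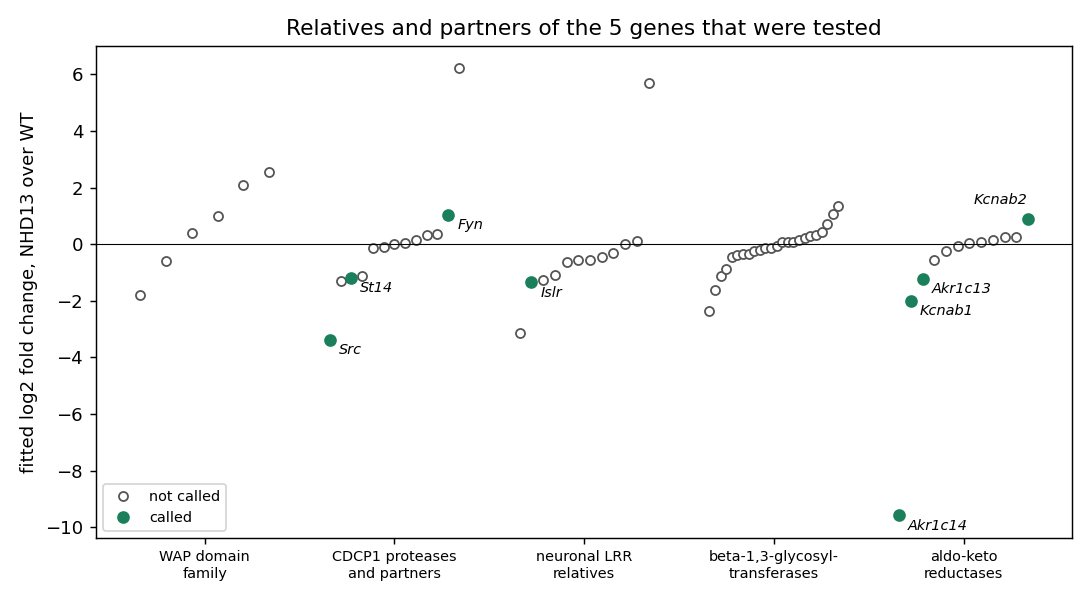
Fitted log2 fold change of NHD13 over WT (y axis) for the 67 tested relatives and partners, sorted within each of 5 lists; filled green points passed an adjusted p of 0.05. The called genes are Src, St14, Fyn, Islr, Akr1c14, Akr1c13, Kcnab1 and Kcnab2, and the WAP domain and beta-1,3-glycosyltransferase lists hold open points only.

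The 3 nearest genes of the tables on each side of each of the 5 genes were examined for changes around them, by RefSeq gene order on GRCm38.p6. Of 30 such neighbours 19 were tested and 2 were called, against 4.28% of all genes tested. Both were lower and beside Akr1c19: Akr1c14, which passed the filter through WT alone, and Akr1c13. Neither was called by edgeR without WT library 1, WT library 2 or NHD13 library 1, where 5, 4 and 5 neighbours had p under 0.05 before adjustment, and where DESeq2 called 2, 3 and 3. The pseudogene Marcksl1-ps4, next to Akr1c19 on its other side and named after its values were seen, also passed the filter through WT alone. It had 1 and 0 counts in NHD13 and 38 and 35 counts in WT. Its ratio of WT over NHD13 was 76.0, with a 95% exact binomial interval of 13.2 to 3044 (edgeR adjusted p 0.0551, or 0.00788 by DESeq2). Akr1c6 had no counts in any library.

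Around the other genes no neighbour was called by edgeR on the 4 libraries. Beside Lrrn1, Crbn, a substrate receptor gene of a ubiquitin ligase, had a log2 fold change of 0.30 ± 0.09 (adjusted p 0.118) and Itpr1, a calcium channel gene, had 0.11 ± 0.09 (adjusted p 0.514). The interleukin 5 receptor gene Il5ra, on the same side as Crbn, was at 3.09 and 3.29 CPM in NHD13 and 0.437 and 0.766 CPM in WT (2.40 ± 0.47, adjusted p 0.0625, or 0.00211 by DESeq2). Beside Cdcp1, Tmem158 had -1.91 ± 0.53 (adjusted p 0.107) and Limd1 0.11 ± 0.11 (adjusted p 0.551). Beside Wfdc2, Pigt had 0.46 ± 0.16 (adjusted p 0.149), and Spint3, Wfdc6a and Eppin had no counts in any library. Of the 6 neighbours of B3galt1 Stk39 was the 1 tested (-0.41 ± 0.36, adjusted p 0.513).

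**Figure D4:**
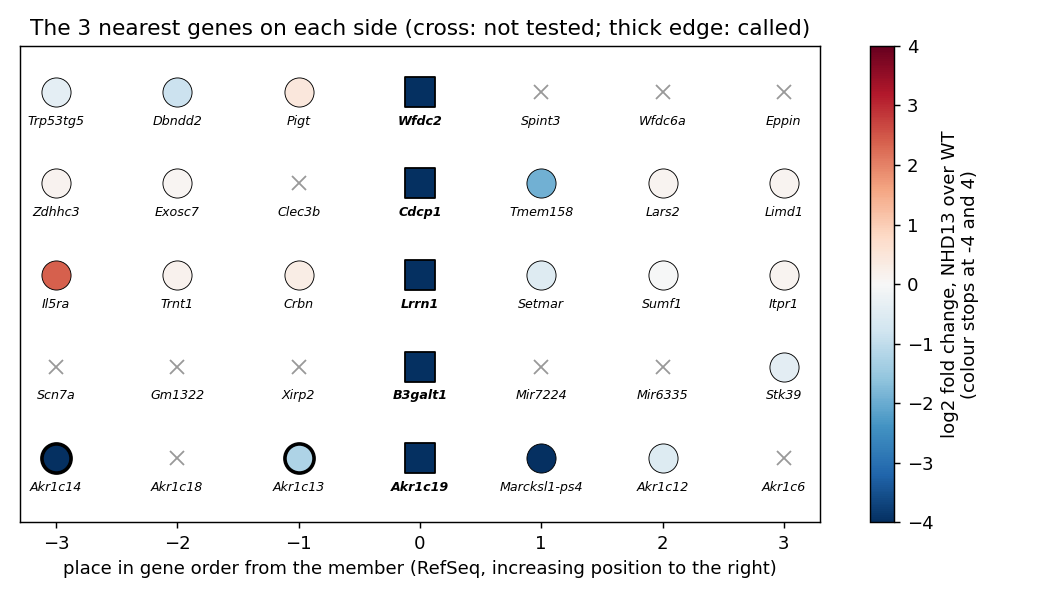
Each of the 5 genes (squares, centre) with the 3 nearest genes on each side in gene order (x axis, place from the gene); colour gives the fitted log2 fold change of NHD13 over WT, crosses mark genes that were not tested, and thick edges mark calls. The 2 calls, Akr1c14 and Akr1c13, both lie beside Akr1c19.

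Since Wfdc2 and Cdcp1 are known from epithelia, markers of epithelium and of other cell types were set beside them. The 12 epithelial markers summed to 7.80 and 16.2 CPM in NHD13 and 105 and 21.5 CPM in WT, and 10 of the 12 were higher in WT library 1 than in WT library 2. Cdh1, the epithelial cadherin gene, averaged 0.704 ± 0.419 CPM in NHD13 (SD, n = 2) and was at 47.6 and 0.903 CPM in WT, and the keratin gene Krt19 at 0.233 and 0.245 CPM in NHD13 and 22.8 and 1.48 CPM in WT. In NHD13 library 1, 5 of the 12 markers were at 0, against 1 in NHD13 library 2, 0 in WT library 1 and 1 in WT library 2. The 10 stromal markers summed to 36.1 and 36.9 CPM in NHD13 and 83.3 and 17.4 CPM in WT. For Lrrn1, known from the nervous system, 10 neural and Schwann cell markers summed to 12.1 and 11.4 CPM in NHD13 and 27.04 and 14.5 CPM in WT. None of the 7 tested was called by edgeR, and DESeq2 called Map2 alone, lower (adjusted p 0.00237). The ratios of the 5 genes between WT library 1 and WT library 2 were 0.907 to 1.14, as given above. None of the 9 epithelial markers tested was called by edgeR. DESeq2 called Krt19, Elf3, Cldn4 and Krt7 lower in NHD13 (adjusted p 2.05e-06, 0.00317, 0.00403 and 0.0172) and not the rest. It called 17.5% of all tested genes. Krt7 was at 3.75 and 6.06 CPM in NHD13 and 10.2 and 11.8 CPM in WT. Cldn7 was at 1.31 and 3.18 CPM in NHD13 and 2.09 and 2.08 CPM in WT. Markers of other blood cells differed between the groups as well. In NHD13, edgeR called 3 of 10 granulocyte markers higher (Mpo, Elane and Ctsg) and 2 of 6 megakaryocyte markers lower (Gp9 and Mmrn1). Of 5 B lymphocyte markers tested 1 was called higher, as was 1 of 8 erythroid markers. Over all genes tested, 2.07% were called higher and 2.22% lower. The megakaryocyte list was split by DESeq2, which called Gp9 and Mmrn1 lower and Pf4 and Ppbp higher (adjusted p 0.00106 and 0.0256 for the latter). Mast cell and basophil markers summed to 133 and 112 CPM in NHD13 and 9.15 and 7.03 CPM in WT. Of 4 tested edgeR called 1, lower: Fcer1a, with 0 and 1 counts in NHD13, which passed the filter through WT alone. DESeq2 called Fcer1a lower as well, and Cpa3 and Ms4a2 higher (adjusted p 0.000867 and 0.00434 for the latter). The NHD13 sum came mostly from Ms4a2 in library 1 (111 CPM) and from Cpa3 in library 2 (107 CPM). The part of any of these cell types, epithelial, stromal and neural included, in the levels of the 5 genes was not tested.

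**Figure D5:**
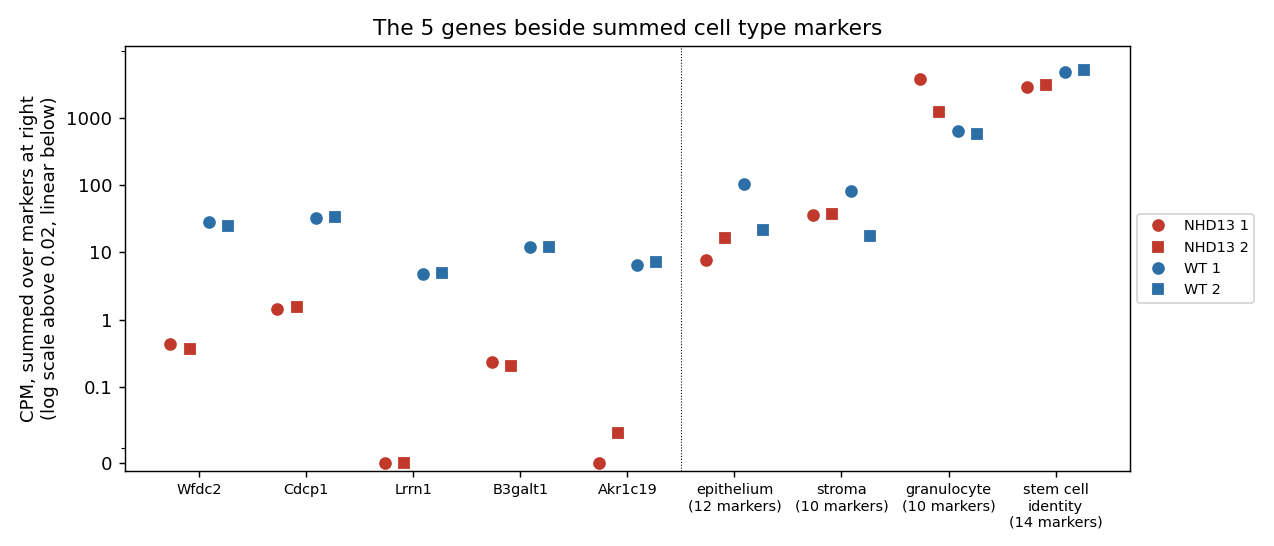
CPM (y axis, logarithmic above 0.02 and linear below) of the 5 genes and, right of the dotted line, the summed CPM of markers of 4 cell types, in each library, NHD13 in red and WT in blue. The epithelial sum was 105 CPM in WT library 1 and 21.5 CPM in WT library 2. The ratios of the 5 genes between these libraries ran from 0.907 for Akr1c19 to 1.14 for Wfdc2. The part of epithelial cells in the levels of the 5 genes was not tested.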

How the data were processed

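Per the labels' protocols, the authors made cDNA libraries from Trizol-extracted RNA by SMARTer amplification, for HiSeq sequencing of 75-base read pairs. The submitters' processing notes name Bowtie 0.12.2 and mm9. What program counted reads, and how strand and multiple alignments were treated, is not given in the sources used here. The deposited values are raw counts per RefSeq transcript, 1 table per library, and the transcript with the highest total stood for each gene.

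The groups were compared with edgeR 4.0.16 in R 4.3.3 (default filter, TMM, robust quasi-likelihood fit over the 4 libraries, Benjamini-Hochberg adjustment over all genes, called under 0.05). CPM use TMM-scaled totals; the SE is the log2 fold change over the square root of F. On simulated data the fit recovered the size of the changes and made more false calls than its threshold states. All 5 genes passed the filter, through the WT libraries (Cdcp1 and Wfdc2 also in NHD13). They and the lists were chosen with earlier results of these data known. The text names, per list and for the neighbours, up to 4 called genes, or 2 where none was called, and 3 nearest patterns per gene (1 of those of Cdcp1 is not reported here); Lrrn, B3galt, Wfdc, kinase, reductase and neighbour genes beyond these were chosen after their values were seen. DESeq2 1.42.0 and limma-voom (limma 3.58.1), other scalings and filters, summed transcripts, a replicate block and leaving out each library were alternatives.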

Additional observations from a re-analysis of the deposited data

How the results depend on the processing

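In the 17 other settings run, the log2 fold change of each of the 5 genes stayed below 0. It ranged over all settings from -6.19 to -5.92 for Wfdc2, -4.50 to -4.40 for Cdcp1, -5.89 to -5.67 for B3galt1, -10.71 to -8.64 for Lrrn1 and -11.04 to -8.20 for Akr1c19 (its ends without NHD13 library 2 and NHD13 library 1). This direction was given by the choice of the genes. The 12 relatives named by rule kept their direction in the settings run, with adjusted p up to 0.260 for those called. Of the other relatives named, Lrrn3 (-0.59 to 0.42), Wfdc17 (-0.82 to 3.51) and Wfdc21 (-0.29 to 2.95) changed sign when 1 library was left out. Among the markers named, Flt3 (-1.57 to 2.20), Cldn7 (-0.66 to 0.62), Klrb1c (-0.51 to 0.22), Cd27 (-0.49 to 0.04), Slamf1 (-0.10 to 0.18) and Cd3d (-0.62 to 0.02) did so too.

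Against 636 genes called, there were 1138 without a filter, 1066 with at least 1 CPM in both libraries of a group, and 2604 by DESeq2. Leaving out 1 library gave 0 to 990 calls by edgeR; both fits without a WT library gave 0, where 2332 and 2605 genes had p under 0.05 before adjustment. DESeq2, chosen after seeing the data, called 955 and 1067 without WT library 1 or 2, and 1287 and 2366 without NHD13 library 1 or 2. Against 8 relatives called, DESeq2 called 15, or 16 without NHD13 library 2, and leaving out 1 library gave 0 to 8 by edgeR. Against 2 neighbours called, there were 4 without a filter and 5 by DESeq2, and 0 to 2 by edgeR when leaving out 1 library. The causes were not tested.

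With the replicate number as a block, edgeR called 107 genes, 0 relatives and 0 neighbours, with 18 relatives and 6 neighbours at an unadjusted p under 0.05. Deviations of same-numbered libraries correlated at -0.21 over genes, so the numbers do not pair them; with the numbers crossed, chosen after seeing the data, there were 647 genes, 8 relatives (Src and Islr not among them) and 2 neighbours. Depth limits Lrrn1, Akr1c19 and Akr1c14 to bounds or wide intervals.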
